A study of Mus musculus with 15 samples.

Results

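The genes of the cytosolic ribosome were followed through the adipogenic culture of mouse embryonic fibroblasts (MEFs). Members were the protein-coding genes whose symbol begins with Rpl or Rps and follows the plain numbering of ribosomal proteins, together with Rpsa and Rplp0 to Rplp2, if they had 10 or more counts in at least 3 libraries. Of 46603 gene identifiers in the count files, 83 protein-coding genes matched the name pattern and 80 met the count minimum. They comprised 32 genes of the small subunit and 48 of the large subunit, counting copies such as Rps27l and Rpl7l1 with the gene they resemble. The genes left out were Rpl10l with 0 counts, which allows up to 3, Rpl39l with 1 count and Rpl3l with 13 counts over all 15 libraries.

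The small subunit of the ribosome reads the messenger RNA and the large subunit joins the amino acids. Each is built in the nucleolus from ribosomal RNA and 1 copy of nearly every ribosomal protein, with the help of assembly factors that do not remain in the finished particle. The messenger RNAs of ribosomal proteins usually begin with a run of pyrimidines, the terminal oligopyrimidine (TOP) tract, through which mTOR complex 1 and the RNA binding protein Larp1 control their translation. Their genes have left many processed pseudogenes in mammalian genomes.

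The cells were wild-type BALB/c MEFs from embryos of 10.5 days, and all 5 groups shared this origin and a growth medium of DMEM with 10% fetal bovine serum. The introduction of the study names another strain and a later embryo age for MEFs in general. MEFD0 was collected at day 0, MEFD3min and MEFD5min after 3 and 5 days without inducers. MEFD3plu received a mixture of insulin (10 µg/mL), rosiglitazone (10 µM), dexamethasone (1 µM) and the phosphodiesterase inhibitor 3-isobutyl-1-methylxanthine (0.5 mM) until day 3, and MEFD5plu had the same mixture to day 3 followed by growth medium to day 5. Each group had 3 libraries, numbered 1, 3 and 4, and nothing in the labels says that they were separate cultures or embryos, so that p-values measure the spread between these libraries.

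Total counts lay between 24030558 and 37281126 per library. Levels are given as CPM, counts scaled to a common library size after TMM normalisation. The summed level of 7 adipocyte markers was 9440 to 13200 CPM in the treated groups and 40.0 to 60.5 CPM in the untreated ones, where Adipoq or Plin1 or both stood at or under 3 counts per library. Summed CPM of 8 fibroblast markers was 24500 to 35900 in MEFD3min and 10500 to 16000 in the other groups. In bulk RNA, fewer cells of a type and less RNA per cell cannot be told apart.

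Start-site sequences are shown first because the TOP tract is what these genes are known to share. RefSeq (GRCm38.p6) gave a start for 60 of the 80 genes. Windows from 15 bases before to 15 after the start were searched on the gene's strand for a pyrimidine run, given by the motif CTTTC and its variant CTTTT. The motif CCTTT was searched as well, and so was the run CTCTT, and matches may overlap each other. At least 1 window held such a run in 24 of the 60 genes (40.0%), against 3485 of 27025 genes in the whole table (12.9%). Capitals mark the run. Rplp2 (chr7:141447636-141447665, plus strand), Rps27 (chr3:90213634-90213663, minus strand), Rpl12 (chr2:32961697-32961726, plus strand) and Rpl28 (chr7:4792950-4792979, plus strand) are genes with a run that were called in at least 1 comparison. Rpl27 (chr11:101442230-101442259, plus strand) and Rps4x (chrX:102189377-102189406, minus strand) were called too and had none in their windows. The windows read, 5′ to 3′:
Rplp2: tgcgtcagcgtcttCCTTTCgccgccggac
Rps27: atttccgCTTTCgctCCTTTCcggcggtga
Rpl12: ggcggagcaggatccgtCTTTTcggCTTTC
Rpl28: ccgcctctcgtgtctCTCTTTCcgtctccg
Rpl27: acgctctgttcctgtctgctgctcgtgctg
Rps4x: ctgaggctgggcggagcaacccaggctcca
A match describes these letters in this window, and its absence says nothing about how the transcript is controlled.

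Levels differed far more between members than between groups. Per kilobase of exon in protein-coding transcripts, the mean level over 15 libraries ran from 8.91 to 4430 CPM per kb with a median of 417. Rplp1, Rplp0 and Rps4x were the 3 highest at 4430, 2550 and 2360 CPM per kb. Rplp1 and Rplp0 belong to the acidic stalk of the large subunit, which recruits elongation factors, and Rps4x is an X-linked protein of the small subunit. In MEFD0 the levels were 3960 ± 668 for Rplp1, 2220 ± 266 for Rplp0 and 2040 ± 218 CPM per kb for Rps4x (SD, n = 3). The mean ± SD of the last pair overlapped. These SDs include the shift that members share within a library, described below, and the pair was not tested within libraries. Rpl27, Rpl5 and Rps27 were the 3 lowest at 26.1, 14.1 and 8.91 CPM per kb. By contrast, the fold between the highest and the lowest group mean of a gene had a median of 1.38 over the 80 genes, and 62 genes stayed under 1.5. MEFD3min held the highest group mean for 47 genes, MEFD5plu for 17, MEFD3plu for 7, MEFD5min for 6 and MEFD0 for 3.

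Sequence shared with pseudogenes limits how these levels can be read. Of all 50-base stretches in a member's transcripts, the share found in no other annotated transcript ranged from 4.91% for Rpl35 to 100%, with a median of 61.6%. Some sequence was shared with an annotated pseudogene in 79 of the 80 genes, and 52 genes had 50% or more to themselves. Rps27, at 53.8%, shares 46.2% of its stretches with Rps27rt, a protein-coding copy. Rps27rt measured 3.97 ± 0.609 CPM in MEFD0, beside 3.21 ± 0.669 CPM for Rps27 (SD, n = 3). Reads that fit several places may have been dropped or split in the authors' counting, which the sources used here do not state, so low levels of Rps27, Rpl5 (14.6% to itself) and Rpl27 (61.2%) are uncertain. Across the 80 genes the share and the CPM per kb were nearly unrelated (Spearman's rho 0.12, a description across genes). The 838 annotated pseudogenes of this kind in the count files took 0.138% to 0.233% of counts. Strand use in the counting is not given in the sources used here, and antisense genes cover 71.2% of the exon bases of Rpl35 and 59.7% of those of Rpl23a.

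The 80 genes moved as a block from library to library. They took 4.99%, 4.87% and 6.11% of counts in replicates 1, 3 and 4 of MEFD0, and 6.41%, 4.98% and 7.73% in those of MEFD3min. In MEFD3plu the shares were 5.31%, 5.15% and 6.24%. MEFD5min had 5.70%, 5.85% and 6.66%, and MEFD5plu 5.49%, 6.07% and 5.60%. Replicate 4 was the highest of its group everywhere except in MEFD5plu, and the ranges of all 5 groups overlapped. Group means were 5.32% ± 0.688, 6.37% ± 1.38, 5.57% ± 0.585, 6.07% ± 0.517 and 5.72% ± 0.306 (SD, n = 3, same order). No test was made on these shares, since an exact test of 3 against 3 cannot go below p = 0.1.

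**Figure D1:**
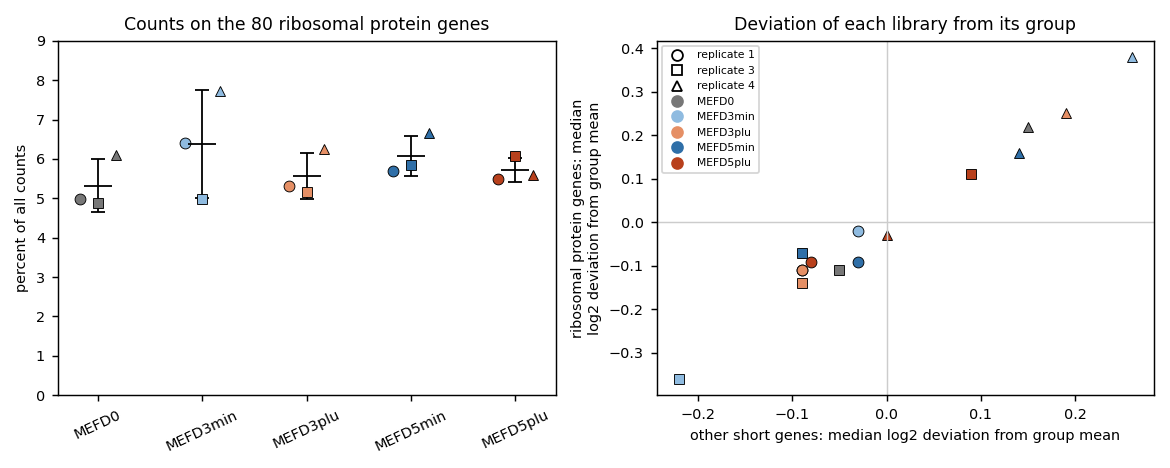
Left, percent of all counts on the 80 ribosomal protein genes in each library by group, with the group mean and SD (n = 3) as a bar. Right, for each library, the median log2 deviation of the ribosomal protein genes from their group means against that of 510 other short genes. The MEFD3min libraries lie at both ends, replicate 4 at 0.38 and replicate 3 at -0.36 on the vertical axis.

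MEFD3min replicate 4 was above its group mean for all 80 genes, by a median of 0.38 on the log2 scale, and MEFD3min replicate 3 was below it for all 80, with a median deviation of -0.36. All 80 genes were also above the group mean in replicate 4 of MEFD0 and MEFD5min, and 79 in that of MEFD3plu. Other protein-coding genes with under 1000 bases of exon (510 genes) deviated with them, by medians of 0.26 in MEFD3min replicate 4 and -0.22 in MEFD3min replicate 3. The mitochondrial share of counts was highest in the same library as the members' share in every group. It was 3.29%, 2.44% and 4.12% in MEFD3min and 5.36%, 5.26% and 6.64% in MEFD3plu. The part of either in the members' shift was not tested. The median within-group SD of a member was 0.235 in log2 CPM, against 0.137 for the 10282 genes at or above the level of the lowest member. It was 0.248 for the 510 other short genes and 0.188 for all 15997 genes tested. The members' median SD was 0.07 once each library was set to its median member. Ratios among the members thus varied less between replicates than their common level.

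**Figure D2:**
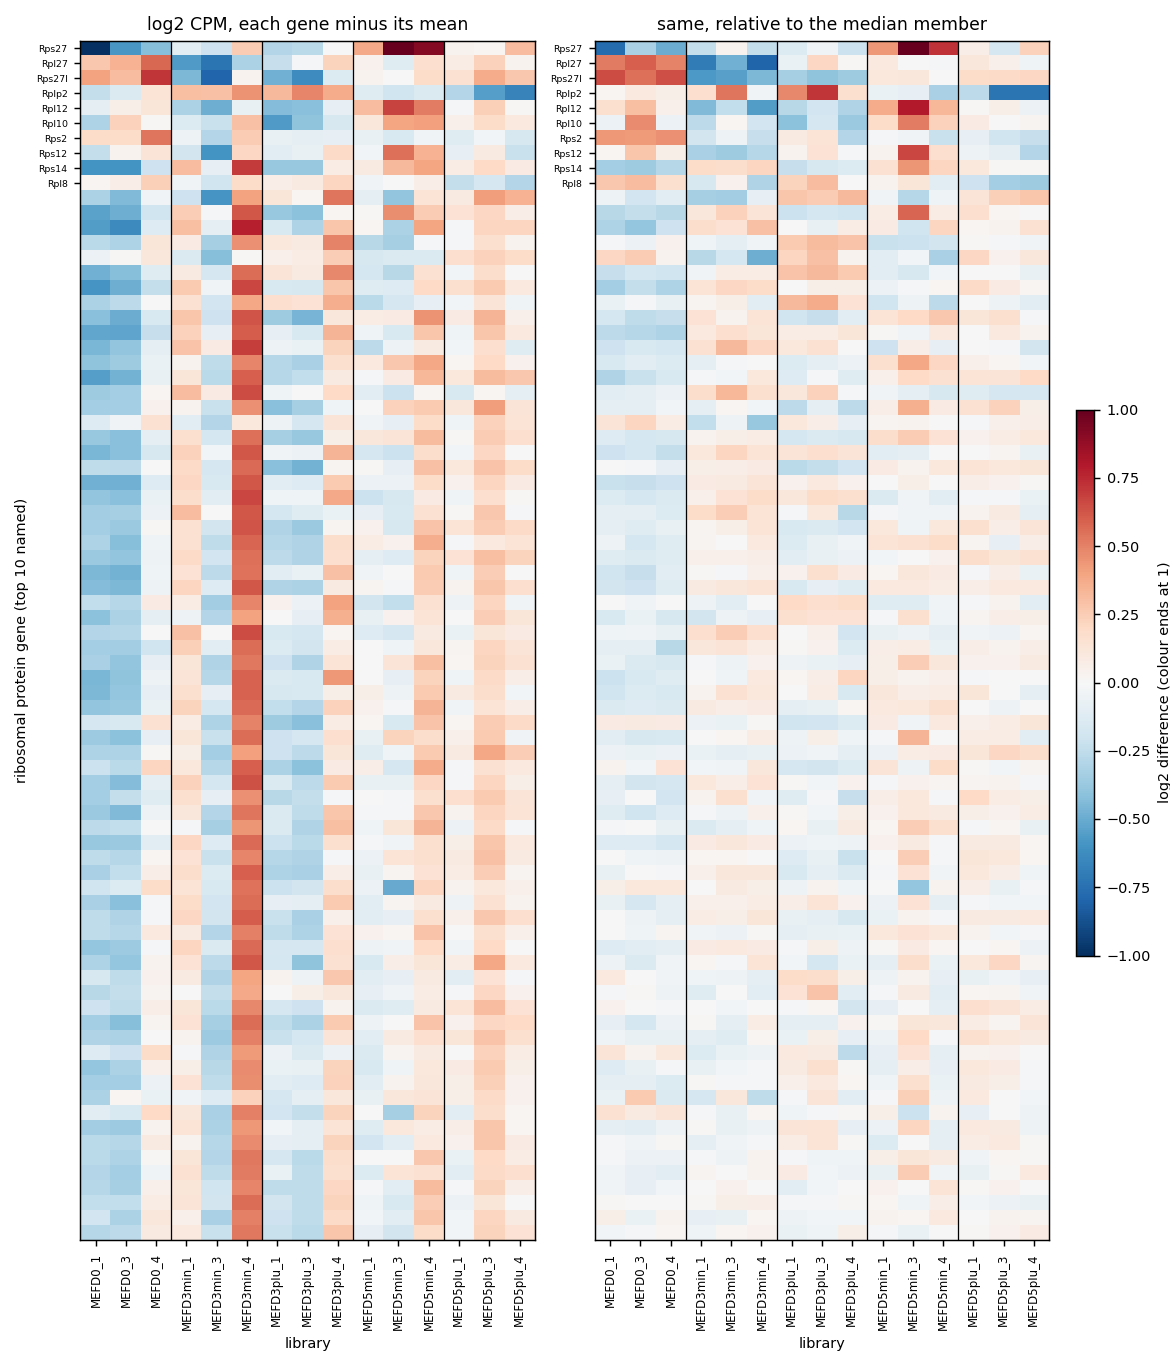
Left, log2 CPM of the 80 ribosomal protein genes (vertical axis) in 15 libraries (horizontal axis), each gene minus its mean over libraries. Right, the same after setting each library to its median member, with genes ordered by the range of their group means on that scale and the top 10 named. Whole columns shift together on the left, and on the right the departures sit in the top rows, from Rps27 (1.29) down.

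Between day 0 and day 3 without inducers 42 of the 80 ribosomal protein genes rose, a count that moved with the libraries used. The comparison of MEFD3min with MEFD0 asks what 3 days of culture do by themselves. The quasi-likelihood test of edgeR with Benjamini-Hochberg adjustment over 15997 genes called these 42 higher at adjusted p under 0.05, where 31.4% of all tested genes were higher, and 4 lower, where 28.6% were lower. The median log2 fold change was 0.39 over the members, 0.04 over all genes and 0.06 over the 510 other short genes. It was 0.42 for the small subunit (18 of 32 higher) and 0.37 for the large (24 of 48 higher).

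Rpl39 and Rps14 had the largest rises. Rps14, a small subunit protein near the decoding site, measured 895, 892 and 1170 CPM in MEFD0 and 1670, 1280 and 2190 CPM in MEFD3min. The groups did not overlap, and the log2 fold change was 0.80 ± 0.171 (SE, adjusted p = 0.000646). Rpl39, one of the smallest large subunit proteins, rose by 0.80 ± 0.214 (adjusted p = 0.00393). Its call was lost without all the libraries numbered 1 (adjusted p = 0.0756). Rplp2 rose by 0.42 (adjusted p = 0.00269), a call lost in 1 of 18 alternatives. Rplp0 had a log2 fold change of 0.32 (adjusted p = 0.0453), a call lost in 10 of 18 alternatives with values from -0.05 to 0.46. Rpsa, the laminin receptor protein of the small subunit, measured 2120 ± 258 CPM in MEFD0 and 2560 ± 658 in MEFD3min.

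The 4 genes that fell were Rpl27, Rps27l, Rps2 and Rpl12. Rps2, which lies at the messenger RNA entry side of the small subunit, changed by -0.33 ± 0.123 (adjusted p = 0.0311), a call lost in 6 of 18 alternatives. Rpl27 and Rps27l are described below with their libraries, and Rpl12 in other comparisons. Without MEFD3min replicate 4 the median was 0.18 with 16 genes higher and 6 lower, and without MEFD3min replicate 3 it was 0.55 with 65 higher and 2 lower. Without MEFD0 replicate 1, 21 were higher, and without all the libraries numbered 1, 8 were.

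At day 3, MEFD3plu/MEFD3min asks what the inducers changed. Of the 80 genes, 2 were higher (28.0% of all genes were) and 15 lower (28.0% of all genes were). Their median log2 fold change was -0.24, beside 0.00 for all genes and 0.06 for the other short genes. Large subunit genes made up 12 of the 15 that fell and 48 of the 80 members. The median was -0.27 for the large subunit and -0.22 for the small. This comparison shares the MEFD3min libraries with the previous one, so a library that is high in both pulls them in opposite directions. Without MEFD3min replicate 4 the median was -0.02 and 1 gene was lower, and without MEFD3min replicate 3 it was -0.41 with 48 lower. The count of lower genes was 8 without MEFD3min replicate 1, 3 without MEFD3plu replicate 1, 0 without all the libraries numbered 1, 3 in a fit of the compared libraries alone, and 29 when replicate number entered the fit as a block.

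The genes that fell were led by Rps14, Rpl17 and Rpl21, by -0.56 ± 0.170 (adjusted p = 0.0102), -0.55 ± 0.154 (adjusted p = 0.0058) and -0.50 ± 0.164 (adjusted p = 0.016). Rps14 measured 1670, 1280 and 2190 CPM in MEFD3min and 1040, 1040 and 1420 CPM in MEFD3plu. Rpl17 lines the peptide exit tunnel and measured 211, 177 and 274 against 137, 134 and 181 CPM. The groups overlapped for both genes, while each MEFD3plu library was below the MEFD3min library of the same number. The Rps14 call was lost in 4 of 18 alternatives, among them the fits without MEFD3min replicate 4 and without MEFD3plu replicate 1, and the Rpl21 call in 5. The Rpl17 call was lost in 1, the fit without all the libraries numbered 1 (adjusted p = 0.0754). Rps4x had a log2 fold change of -0.40 (adjusted p = 0.0433) and Rpl22 one of -0.41 (adjusted p = 0.0344), calls lost in 8 and 7 of 18 alternatives. Rps9, of the small subunit, was at 1730 ± 349 CPM in MEFD3min and 1390 ± 125 in MEFD3plu and was not called. The 2 genes that rose were Rpl27 and Rpl7l1.

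The same question was asked on day 5. In MEFD5plu/MEFD5min, 1 gene was higher, Rpl7l1, where 26.3% of all genes were, and 4 were lower, Rps27, Rpl12, Rplp2 and Rpl8, where 24.2% of all genes were. The median log2 fold change was 0.08 over the members, 0.01 over all genes and 0.42 over the 510 other short genes. The members' median was -0.08 when libraries were scaled by total counts alone. A fit of the compared libraries alone called 4 higher and 5 lower on day 5, and 1 higher and 3 lower on day 3. Rpl22l1 had the largest value, 0.40 ± 0.205, which was not called (adjusted p = 0.119). Rplp1 at 0.26 and Rps12 at -0.38 were not called either (adjusted p = 0.221 and 0.0835).

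The treatment effect was also compared between the days, as the day 3 difference minus the day 5 difference. In this interaction 3 members were higher (22.6% of all genes were) and 5 lower (25.8% of all genes were). Rpl27 (0.46), Rplp2 (0.39) and Rpl8 (0.38) were the higher ones. Rpl21 (-0.61), Rpl28 (-0.57), Rps4x (-0.57) and Rpl3 (-0.50) were among the lower ones. The members' median was -0.27, beside -0.03 for all genes and -0.41 for the 510 other short genes. Scaling by total counts alone gave 6 higher and 0 lower with a median of -0.08, and blocking by replicate number gave 5 and 23. Without MEFD3min replicate 4 the median was -0.05 with 5 higher and 1 lower, and without MEFD3min replicate 3 it was -0.43 with 0 higher and 32 lower.

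**Figure D3:**
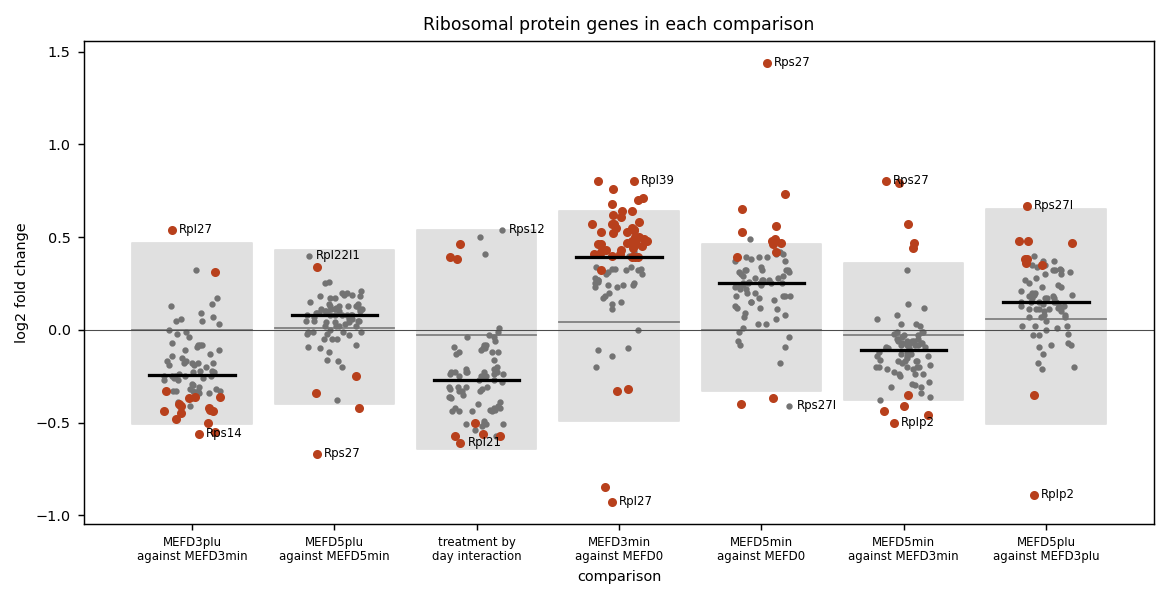
Log2 fold change (vertical axis) of each of the 80 ribosomal protein genes in the 7 comparisons (horizontal axis), red where adjusted p was under 0.05, with their median as a black bar. Grey boxes give the quartiles and median of all 15997 genes, and the lowest and highest members are named. The members' median is highest in MEFD3min against MEFD0 (0.39) and lowest in the interaction (-0.27).

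The days were then compared within each treatment. In MEFD5min/MEFD3min, 5 genes were higher (21.3% of all genes were) and 5 lower (21.5% of all genes were), with a median of -0.11 that became 0.09 without MEFD3min replicate 4 and 0.00 when libraries were scaled by total counts alone. Without MEFD3min replicate 3, 3 were higher and 19 lower. Rps27, Rpl12 and Rpl27 rose most and Rplp2, Rps9 and Rps28 fell most, Rps9 by -0.46 ± 0.135 (adjusted p = 0.0112) and Rps28 by -0.44 ± 0.145 (adjusted p = 0.021). The Rps9 call was lost in 3 of 18 alternatives and the Rps28 call in 4. MEFD5plu/MEFD3plu gave 8 higher (33.8% of all genes were) and 2 lower (29.2% of all genes were). The members' median was 0.15, beside 0.06 for all genes and 0.46 for the other short genes. Rps27l, Rpl10 and Rpl11 rose most, Rpl11 by 0.48 ± 0.156 (adjusted p = 0.0134). The calls of Rpl10 and Rpl11 were each lost in 4 of 18 alternatives. Rpl11 binds Mdm2 when it is not in a ribosome, and Rpl10 is added late to the large subunit. In place of 8 higher, 1 was higher without MEFD3plu replicate 1, 31 without all the libraries numbered 4, 21 in a fit of the compared libraries alone and 24 when blocked by replicate number. Over the whole untreated course, MEFD5min/MEFD0 had 11 higher (24.5% of all genes were) and 2 lower (21.9% of all genes were), with a median of 0.25, or 0.15 without MEFD5min replicate 4. Leaving out MEFD0 replicate 1 or MEFD5min replicate 4 gave 4 higher, and leaving out all the libraries numbered 4 gave 24.

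Some members departed from the rest of the block. To describe this, the libraries were also scaled so that the ribosomal protein genes had equal geometric means, a setting added after the data had been seen and in which the members' own median is near 0 by construction. Under it, 21 of the 80 genes were called in MEFD3min/MEFD0 (48.9% of all genes were), 16 in MEFD3plu/MEFD3min (41.1% of all genes), 6 in MEFD5plu/MEFD5min (27.8% of all genes) and 7 in the interaction (27.6% of all genes). The count was 14 in MEFD5min/MEFD0 (33.7% of all genes), 10 in MEFD5min/MEFD3min (23.6% of all genes) and 13 in MEFD5plu/MEFD3plu (46.7% of all genes). In every comparison the members' share was below that of all genes. The scaling takes the members' common shift out of them and puts it on the other genes. This difference in shares is therefore partly set by construction and is not read as a trait of the members. Under this scaling, 41 members were called in no comparison. The range of a gene's group means relative to the median member had a median of 0.26 and exceeded 1 on the log2 scale for Rps27, Rpl27, Rps27l and Rplp2. The 10 members lowest in CPM per kb, among them Rps27, Rpl27, Rpl12 and Rpl7l1, had a median range of 0.55, against 0.26 for the other 70. Across all 80 genes range and CPM per kb were nearly unrelated (Spearman's rho -0.05). The part of low level in these departures was not tested. Rps23, a decoding site protein, held closest to the block with a range of 0.07.

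Rpl27 (chr11:101442298-101445529, plus strand, GENCODE M21 on GRCm38), a large subunit protein, was lowest in MEFD3min. It measured 28.4, 30 and 35.1 CPM in MEFD0, then 15.9, 14.2 and 18.9 CPM in MEFD3min. With inducers it stood at 20.1, 23.3 and 27.5 CPM on day 3. On day 5 it was at 24.3, 21.7 and 26.5 CPM in MEFD5min and 24.8, 27.6 and 24.1 CPM in MEFD5plu. All MEFD3min libraries were below all those of the other groups. The log2 fold change was -0.93 ± 0.131 in MEFD3min/MEFD0 (adjusted p = 8.94e-06), 0.54 ± 0.131 in MEFD3plu/MEFD3min (adjusted p = 0.00217) and 0.57 ± 0.131 in MEFD5min/MEFD3min (adjusted p = 0.00209). In MEFD5min/MEFD0 it was still lower, by -0.37 ± 0.128 (adjusted p = 0.0269), with no overlap, a call lost in 5 of 18 alternatives. Each of the other 3 changes was called under all 18 alternatives, although its level was the third lowest per kb of all members.

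Rps27 and Rps27l encode near copies of metallopanstimulin in the small subunit, and Rps27l is a known p53 target gene. The longest open reading frames of both were identical at 81.3% of aligned bases. Rps27 (chr3:90212522-90213651, minus strand) measured 2.47, 3.39 and 3.77 CPM in MEFD0, 4.70, 4.38 and 6.05 in MEFD3min and 6.59, 10.2 and 9.57 in MEFD5min. In the treated groups it was at 4.13, 4.20 and 5.07 CPM on day 3 and 5.18, 5.12 and 6.27 CPM on day 5. It rose by 1.44 ± 0.197 in MEFD5min/MEFD0 (adjusted p = 1.39e-05), the largest change of any member, and was lower by -0.67 ± 0.189 in MEFD5plu/MEFD5min (adjusted p = 0.00743). The latter call was lost in 1 of 18 alternatives, without all the libraries numbered 3 (adjusted p = 0.0903). No MEFD5min library overlapped with another group. These values rest on 72 to 354 counts per library. The copy Rps27rt, which holds 46.2% of the stretches of Rps27, rose by 1.08 in MEFD3min/MEFD0 (adjusted p = 0.000348) and by 0.81 in MEFD5min/MEFD0 (adjusted p = 0.00571). In MEFD5min/MEFD3min, where Rps27 rose by 0.80 (adjusted p = 0.00257), Rps27rt changed by -0.27 and was not called (adjusted p = 0.311). That call of Rps27 was also lost without all the libraries numbered 3 (adjusted p = 0.0779). The means of Rps27rt were 6.95 CPM in MEFD5min and 6.63 CPM in MEFD5plu.

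Rps27l (chr9:66946086-66949516, plus strand) was highest in MEFD0. It measured 201, 188 and 250 CPM in MEFD0, 111, 87.7 and 156 in MEFD3min, and 156, 152 and 173 in MEFD5min. The treated groups had 109, 98.3 and 138 CPM on day 3 and 169, 197 and 183 CPM on day 5. It fell by 0.85 ± 0.170 on the log2 scale in MEFD3min/MEFD0 (adjusted p = 0.000372) with no overlap. Like Rps27 it rose in MEFD5min/MEFD3min, by 0.44 ± 0.170 (adjusted p = 0.0468), a call lost in 9 of 18 alternatives. It rose by 0.67 ± 0.170 in MEFD5plu/MEFD3plu (adjusted p = 0.00244), and its change of -0.04 in MEFD3plu/MEFD3min was not called (adjusted p = 0.849). Among 14 tested p53 target genes, Rps27l included, 11 were lower and 0 higher in MEFD3min/MEFD0 (median -0.71), where 28.6% and 31.4% of all genes were. In MEFD3plu/MEFD3min, where Rps27l was not called, 6 were higher and 2 lower (median 0.23), where 28.0% of all genes were in each direction. Cdkn1a, the cell cycle inhibitor p21, was at 131, 132 and 132 CPM in MEFD0 and 47.5, 49.2 and 48.9 CPM in MEFD3min, a change of -1.44 ± 0.0984 (adjusted p = 1.26e-09). With inducers on day 3, Cdkn1a averaged 140 CPM.

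Rplp2, a stalk protein like Rplp1, was highest on day 3 in both treated and untreated cells. Its levels were 427, 455 and 553 CPM in MEFD0 and 618, 616 and 687 in MEFD3min. On day 3 with inducers it was at 628, 704 and 651 CPM. On day 5 it was at 463, 438 and 456 CPM in MEFD5min and 410, 343 and 317 CPM in MEFD5plu. All day 3 libraries were above all others. The change was -0.50 ± 0.107 in MEFD5min/MEFD3min (adjusted p = 0.00111) and -0.89 ± 0.108 in MEFD5plu/MEFD3plu (adjusted p = 2.06e-06). The former call was lost when scaled by the members (adjusted p = 0.0949). The treated day 5 group was also below the untreated one, by -0.34 ± 0.107 (adjusted p = 0.0134), a call lost without MEFD5plu replicate 3, without MEFD5plu replicate 4 and when scaled by the members. Its partner Rplp1 measured 2340 ± 623 CPM without and 2580 ± 426 with inducers on day 3, then 1890 ± 236 and 2270 ± 148 on day 5, and no comparison called it. Scaled by the members, it was called in 4 comparisons, among them MEFD3plu/MEFD3min at 0.38 ± 0.0663 (adjusted p = 0.000262) and MEFD5plu/MEFD3plu at -0.35 ± 0.0663 (adjusted p = 0.000709).

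Rpl12, which forms the base of the stalk, was highest in MEFD5min. Its libraries had 62.1, 80 and 71.6 CPM there, against 40.4, 35.7 and 47.6 in MEFD3min and 49.4, 59.2 and 50.5 in MEFD5plu. The groups did not overlap, with a rise of 0.79 ± 0.126 in MEFD5min/MEFD3min (adjusted p = 7.54e-05) and a difference of -0.42 ± 0.125 in MEFD5plu/MEFD5min (adjusted p = 0.00919). The latter was not called without MEFD5min replicate 3 or without all the libraries numbered 1 (adjusted p up to 0.0535). Rpl8, a protein close to the peptidyl transferase centre, was at 971, 1020 and 937 CPM in MEFD5plu and 1120, 1150 and 1200 CPM in MEFD5min. This difference of -0.25 ± 0.0992 did not overlap between the groups but was near the threshold (adjusted p = 0.049).

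**Figure D4:**
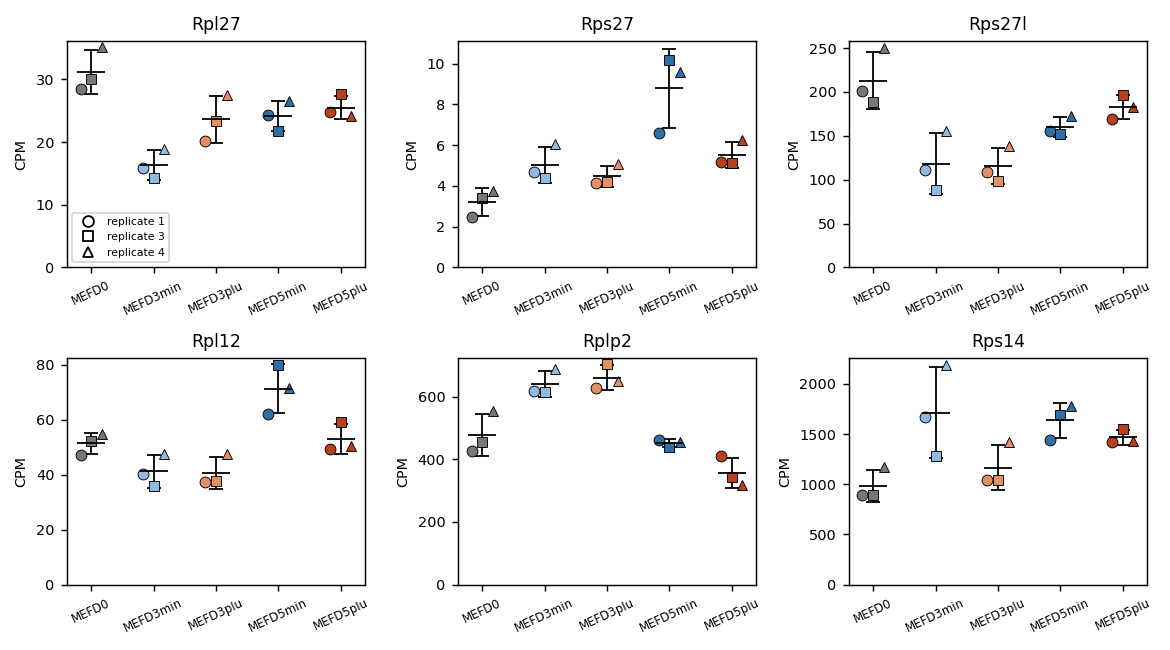
CPM (vertical axis) of 6 ribosomal protein genes in each library by group (horizontal axis), with the group mean and SD (n = 3) as a bar. Rpl27 is lowest in MEFD3min (16.4 CPM on average), Rps27 and Rpl12 are highest in MEFD5min, Rps27l is highest in MEFD0, Rplp2 is highest on day 3, and Rps14 is lowest in MEFD0 and MEFD3plu.

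Copies of ribosomal protein genes were compared with the genes they resemble. Rpl7l1, whose open reading frame matched that of Rpl7 at 73.2% of aligned bases, was higher in treated cells, by 0.31 ± 0.0934 (adjusted p = 0.0101) and 0.34 ± 0.0934 (adjusted p = 0.00546). Its product acts in large subunit assembly. Libraries had 121, 100 and 135 CPM in MEFD3min and 139, 141 and 159 in MEFD3plu, then 120, 121 and 121 in MEFD5min and 151, 157 and 152 in MEFD5plu, with no overlap on either day. The day 3 call was lost in 4 of 18 alternatives, among them the fit without MEFD3plu replicate 4, and the day 5 call in 3, among them scaling by total counts (log2 fold change 0.18). Rpl7 itself measured 1720 ± 486 and 1430 ± 231 CPM on day 3 and 1720 ± 181 and 1700 ± 124 CPM on day 5, untreated first, and was not called for treatment. Rpl22l1 (75.4% of aligned bases shared with Rpl22) was at 127 ± 45 CPM in MEFD3min and 158 ± 30.9 in MEFD3plu, which was not called (adjusted p = 0.197). Rpl22 was called lower there. 

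Ribosome assembly factors were set beside the ribosomal proteins. These nucleolar proteins process ribosomal RNA and mount the ribosomal proteins on it. Of 64 tested, 58 were lower and 1 higher in MEFD3min/MEFD0, where 28.6% and 31.4% of all genes were, and their median on the log2 scale was -0.79. In MEFD3plu/MEFD3min, 44 were higher and 1 lower (median 0.42), where 28.0% of all genes were in each direction. In MEFD5plu/MEFD5min 4 were higher and 29 lower (median -0.19), where 26.3% and 24.2% were. In MEFD5min/MEFD3min 53 were higher and 0 lower (median 0.53), where 21.3% and 21.5% of all genes were. In MEFD5min/MEFD0 3 were higher and 40 lower (median -0.31), where 24.5% and 21.9% were. In MEFD5plu/MEFD3plu 15 were higher and 28 lower, where 33.8% and 29.2% were. The signs of these medians held under every scaling tried for the assembly factors. Scaling by the ribosomal proteins sets their own median near 0 and cannot be compared. Under the other scalings, with all libraries, their median was 0.26 to 0.40 in MEFD3min/MEFD0 and -0.26 to -0.22 in MEFD3plu/MEFD3min. By total counts it turned to -0.08 in MEFD5plu/MEFD5min and was 0.00 in MEFD5min/MEFD3min. Without MEFD3min replicate 4, 57 assembly factors were lower and 0 higher in MEFD3min/MEFD0.

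Nolc1, a nucleolar chaperone, measured 207, 222 and 220 CPM in MEFD0, 71.3, 68.2 and 70.1 CPM in MEFD3min and 171, 170 and 156 CPM in MEFD3plu. Replicates 3 and 4 of MEFD3min, at opposite ends for the ribosomal protein genes, were thus close for this gene. Rrp12, which helps export both subunits, fell by 1.82 ± 0.124 on the log2 scale in MEFD3min/MEFD0 (adjusted p = 1.2e-09) and rose by 1.59 ± 0.124 in MEFD3plu/MEFD3min (adjusted p = 7.71e-09). RNA polymerase I and its factors showed 9 of 15 lower and 0 higher in MEFD3min/MEFD0, where 28.6% and 31.4% of all genes were. With treatment 7 were higher and 3 lower on day 3, where 28.0% of all genes were in each direction. Rrn3, which brings the polymerase to its promoter, was among the higher, at 0.95 ± 0.0706 (adjusted p = 4.16e-09).

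**Figure D5:**
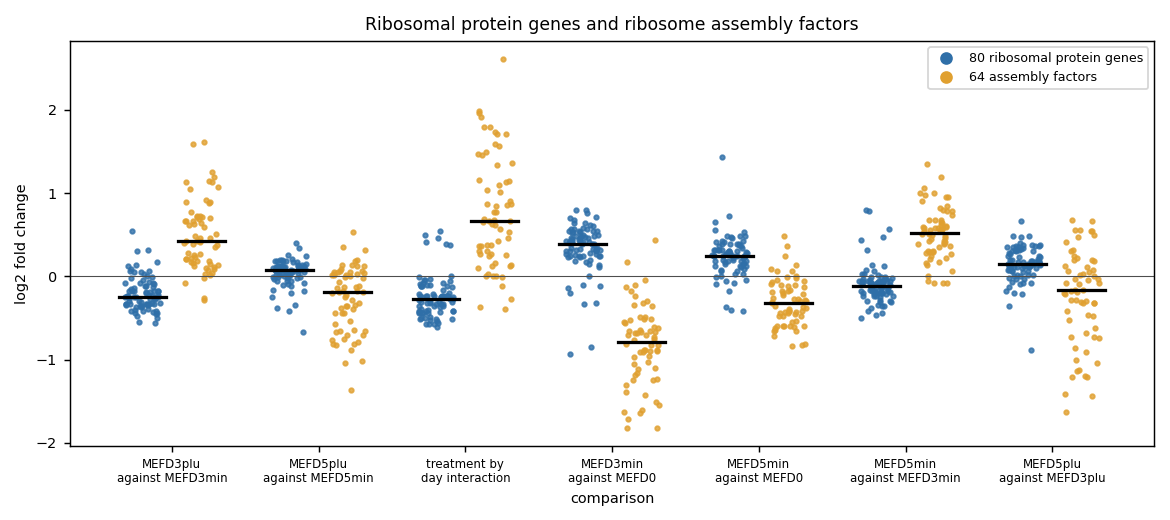
Log2 fold change (vertical axis) of 80 ribosomal protein genes (blue) and 64 ribosome assembly factors (yellow) in the 7 comparisons (horizontal axis), with medians as black bars. With TMM scaling of all libraries, the medians are 0.39 and -0.79 for MEFD3min against MEFD0 and -0.24 and 0.42 for MEFD3plu against MEFD3min, and that of the ribosomal proteins moves to 0.18 and -0.02 without MEFD3min replicate 4.

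Single genes of the Myc and mTOR pathways are given next. Myc, which activates ribosome synthesis, measured 66.4, 64.6 and 60.7 CPM in MEFD0, 23.3, 29.7 and 23.0 in MEFD3min and 71.7, 81.1 and 72.3 in MEFD3plu. It fell by 1.33 ± 0.104 on the log2 scale and then was higher by 1.56 ± 0.104 with treatment (adjusted p = 7.19e-09 and 1.05e-09). On day 5 it was lower in treated cells, by -0.83 ± 0.103 (adjusted p = 4.34e-06). Deptor, an inhibitor inside the mTOR complexes, and Ddit4, which restrains mTOR complex 1, rose by 3.38 ± 0.166 and 2.44 ± 0.111 in MEFD3plu/MEFD3min (adjusted p = 1.85e-11 and 7.92e-12). Larp1 was lower in MEFD5plu/MEFD5min by -0.89 ± 0.156 (adjusted p = 0.00017). Of the 28 genes in this list, 13 were higher and 4 lower with treatment on day 3, where 56.1% of all genes were called in either direction. On day 5, 7 were higher and 8 lower, where 50.5% of all genes were called in either direction.

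Other TOP messenger RNAs did not all follow the ribosomal proteins. Of 13 tested, 4 were higher and 5 lower in MEFD3min/MEFD0, where 31.4% and 28.6% of all genes were. In MEFD3plu/MEFD3min 1 was higher and 4 lower, where 28.0% of all genes were in each direction. In MEFD5plu/MEFD5min 0 were higher and 4 lower, where 26.3% and 24.2% of all genes were. Eef1a1, the factor that brings aminoacyl-tRNA, moved with the block, with 14600, 15000 and 16300 CPM in MEFD0, 23100, 17900 and 27800 in MEFD3min and 14400, 13800 and 16600 in MEFD3plu. Eef2, the translocation factor, and Pabpc1, the poly(A) binding protein, were lower in MEFD5plu/MEFD5min by -0.66 ± 0.110 and -0.97 ± 0.105 (adjusted p = 9.97e-05 and 9.72e-07). Of 29 initiation factors, 5 were higher and 19 lower in MEFD3min/MEFD0, 11 and 4 in MEFD3plu/MEFD3min, and 2 and 11 in MEFD5plu/MEFD5min. The shares of all genes were those given above for the TOP messenger RNAs.

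Ribosomal proteins with other names were followed as well, among them Fau, Rack1, Rpl36al and Rps27rt. Of 5 such genes, 3 were higher and 0 lower in MEFD3min/MEFD0, where 31.4% and 28.6% of all genes were. Rack1, a signalling scaffold on the small subunit, went from 1870 ± 209 to 2720 ± 576 CPM (log2 fold change 0.54, adjusted p = 0.00278).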

How the data were processed

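RNA-seq was made from 15 libraries, 3 in each of 5 groups, and read as 100 bases from both ends. The authors deposited 1 table of raw read counts per gene for each library, whole numbers with no scaling. The submitters' processing notes name TopHat2 2.1.0, HTSeq, DESeq2 and GRCm38 (mm10). The annotation release, the strand setting and the treatment of reads with several places are not given in the sources used here. The labels name an unstranded kit and the study's methods a stranded one.

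Gene names came from GENCODE M21 by Ensembl identifier (46091 of 46603 matched). Counts were kept by filterByExpr, scaled by TMM and fitted over all 15 libraries with edgeR 4.0.16 (quasi-likelihood, prior count 2, R 4.3.3), with Benjamini-Hochberg adjustment over 15997 genes and a threshold of 0.05. All 80 members were tested. Total counts were 24030558 to 37281126, with a median of 33878281. Errors beside a log2 fold change are SE. Alternatives included DESeq2 1.42.0, other scalings and filters, a fit blocked by replicate number, and leaving out each library. Correlations of same-numbered libraries' deviations were 0.143, 0.228 and 0.360 between MEFD3plu and MEFD3min, and in no other comparison were all above 0.1. The main fit did not use the numbers, so its p-values leave out a possible pairing of these groups. With the number as a block, MEFD3plu/MEFD3min gave 3 members higher and 29 lower, in place of 2 and 15. The sources do not say what a number marks.

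On simulated counts for MEFD3plu against MEFD3min (15528 genes) the test recovered 76 of 100 genes changed by 1 and 93 of 100 changed by 2 on the log2 scale, with 9 false calls (5.06% of calls). Whether these rates hold for the members, whose levels shifted together within a library, was not tested. Sequence sharing was measured as exact matches of 50 bases among annotated transcripts.

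The members and gene lists were chosen with earlier results of these data known. Genes were named in the text if they were Rpsa or a stalk protein, a copy or the gene it resembles, among the 3 largest or smallest log2 fold changes of a comparison, among the 3 highest or lowest levels per kb, or named in the study's tables (Rps14, Rps4x, Rps9 and Rpl27). Other called members and list genes were named after their values were seen. Single values of some genes are not reported here, though the genes count in all totals.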

Additional observations from a re-analysis of the deposited data

Results flagged for a closer look

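For 8 ribosomal protein genes the treatment effect differed between day 3 and day 5 by the interaction term of edgeR's quasi-likelihood fit (adjusted p under 0.05). The day 3 effect minus the day 5 effect on the log2 scale was -0.61 for Rpl21, -0.57 for Rpl28, -0.57 for Rps4x and -0.50 for Rpl3. It was 0.46 for Rpl27, 0.39 for Rplp2 and 0.38 for Rpl8. Among all genes tested 22.6% were higher and 25.8% lower, so that 8 of 80 is fewer than the background. Scaling by total counts alone gave 6 higher and 0 lower, and blocking by replicate number 5 and 23. Of the 24 alternatives, Rpl21 lost its call in 14, Rps4x in 13, Rpl27 in 12, Rplp2 in 11 and Rpl3 in 4.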

How the results depend on the processing

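Values for higher and lower genes follow in that order. Fitting only the compared libraries gave 1 and 3 in MEFD3plu/MEFD3min, 4 higher in MEFD5plu/MEFD5min, 3 lower in the interaction, 24 higher in MEFD3min/MEFD0, 37 higher in MEFD5min/MEFD0, 3 and 1 in MEFD5min/MEFD3min and 21 higher in MEFD5plu/MEFD3plu. Scaling by total counts alone gave 0 higher in MEFD5plu/MEFD5min (median -0.08), 6 and 0 in the interaction, 26 higher in MEFD3min/MEFD0 and 3 lower in MEFD5min/MEFD3min. This scaling moved the median of all genes from 0.01 to -0.15 in MEFD5plu/MEFD5min and from -0.03 to 0.15 in the interaction. That median went from 0.04 to -0.08 in MEFD3min/MEFD0 and from -0.03 to 0.07 in MEFD5min/MEFD3min. DESeq2's size factors gave 3 lower in the interaction. No filter gave 43 lower in MEFD3plu/MEFD3min, 4 higher in MEFD5plu/MEFD5min, 5 and 30 in the interaction, 65 higher in MEFD3min/MEFD0, 33 higher in MEFD5min/MEFD0, 19 lower in MEFD5min/MEFD3min and 23 higher in MEFD5plu/MEFD3plu. A minimum of 10 counts in every library gave 18 higher in MEFD5min/MEFD0. With the replicate block, there were 29 lower in MEFD3plu/MEFD3min, 2 higher in MEFD5plu/MEFD5min, 5 and 23 in the interaction, 34 higher in MEFD5min/MEFD0, 10 lower in MEFD5min/MEFD3min and 24 higher in MEFD5plu/MEFD3plu. Members with 50% or more unique stretches alone, which are fewer genes, gave 3 lower in the interaction, 1 lower in MEFD5min/MEFD0, 4 higher in MEFD5plu/MEFD3plu, and shares of counts of 3.81%, 4.72%, 4.08%, 4.46% and 4.18% (MEFD0, MEFD3min, MEFD3plu, MEFD5min, MEFD5plu). Stretches of 100 bases raised the median unique share to 73.0%. Except where the construction shows it, the cause was not tested.

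Scaling by the ribosomal protein genes, chosen after seeing the data, gave 11 and 5 in MEFD3plu/MEFD3min (median 0.00), 6 and 1 in the interaction (median 0.04), 11 and 10 in MEFD3min/MEFD0 (median 0.01), 6 and 8 in MEFD5min/MEFD0 (median 0.01) and 4 and 9 in MEFD5plu/MEFD3plu, as its construction sets the medians near 0. Rplp0 in MEFD3min/MEFD0 turned to -0.05.

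Leaving out 1 library, or all those of 1 number (also chosen after seeing the data), gave 1 to 4 higher and 0 to 48 lower in MEFD3plu/MEFD3min (median -0.41 to -0.02), 0 to 2 and 2 to 4 in MEFD5plu/MEFD5min (-0.07 to 0.12), 0 to 5 and 0 to 32 in the interaction (-0.43 to -0.05), 8 to 65 and 2 to 6 in MEFD3min/MEFD0 (0.18 to 0.55), 4 to 24 and 0 to 3 in MEFD5min/MEFD0 (0.15 to 0.36), 2 to 7 and 1 to 19 in MEFD5min/MEFD3min (-0.28 to 0.09), and 1 to 31 and 1 to 2 in MEFD5plu/MEFD3plu (-0.01 to 0.28). Of 948 alternatives over 51 results on named genes, 757 left the call as it was, 190 lost it and 1 turned its sign, and 13 results were called under every alternative. The search of annotated transcripts in place of a genome was not run as an alternative, since it is the only search made. Depth limits Rps27 most, with 72 to 354 counts per library.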
